A study of Mus musculus with 18 samples.

Results

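Ccnd1 and 9 further regulators of the passage from G1 to S phase were followed in 3 lines derived from P19, an embryonic carcinoma cell line of the mouse. They were taken from the deposited expression table by gene symbol and make up 10 of its 55450 genes. The D-type cyclins Ccnd1, Ccnd2 and Ccnd3, the kinases Cdk4 and Cdk6, the E-type cyclins Ccne1 and Ccne2, the inhibitor Cdkn1b and the pocket proteins Rb1 and Rbl2 are the members. Ccnd1 was chosen for its much higher level in HM cells, so its levels are described without a test in every comparison. The other 9 were chosen by their role.

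D-type cyclins bind CDK4 or CDK6 and start the phosphorylation of the retinoblastoma family, the pocket proteins. Phosphorylated pocket proteins release E2F transcription factors, which drive E-type cyclins and the genes of DNA replication, and cyclin E with CDK2 carries the process forward. The product of Cdkn1b, p27, binds these kinase complexes and blocks cyclin E with CDK2. In pluripotent cells G1 is short and cyclin E activity is high for most of the cycle.

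The 3 lines were WT cells with genotype Dicer (+/+), HetKO cells with Dicer (+/-) and HM cells with Dicer (HM/-), with 6 samples each and 18 in all. HetKO cells carry a truncated, nonfunctional Dicer allele made by CRISPR. HM cells were made from HetKO cells by a further CRISPR step and carry the RNase IIIb hotspot substitution E1797G on the remaining allele, so they share the truncated allele with HetKO. HetKO and HM thus differ, by label, in the remaining allele. The HetKO samples were deposited under a separate run of sample numbers from WT and HM and carry a different form of title. The labels do not say whether they were prepared or sequenced together with the others. In both comparisons with HetKO, a batch difference therefore cannot be told apart from genotype. Each genotype is a single line, so a change from the mutation and a change that arose while the line was cloned cannot be told apart. Nothing in the labels says that the 6 samples of a line came from separate cultures, so the p-values measure only the spread between these samples, which may be technical. Expression was measured by stranded, poly(A)-selected mRNA-seq and is given as TPM, a transcript abundance per length that sums to a fixed total in each sample. TPM keeps no depth, so read numbers are unknown. TPM is per cell population, so fewer cells that express a gene and less of its RNA per cell cannot be told apart.

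Markers of the labelled cell type were present in every line, with Pou5f1 between 1814 and 2244 TPM and a summed level of 6 embryonic carcinoma markers of 2635 to 2883 TPM in WT, 2447 to 2977 in HetKO and 2830 to 3100 in HM. Among these, Sall4 was at 0.63 to 13.5 TPM in HM against 20.2 to 27.9 in WT, and Nanog at 12.5 to 26.6 against 26.4 to 62.4. Sox2 was at 136 to 177 TPM in HM against 95.4 to 108 in WT, Utf1 at 317 to 472 against 174 to 307, and Lin28a at 289.5 to 409 against 261 to 308. The summed level of 14 markers of differentiated cells was 16.4 to 43.8 TPM in WT, 12.4 to 119 in HetKO and 21.2 to 65.5 in HM, and 7, 4 and 5 of the 14 had a mean of 1 TPM or more. Krt5 was listed at 0 in every HetKO sample. Dicer1 itself was at 49.2 to 54.8 TPM in WT, 42.9 to 53.8 in HetKO and 35.4 to 44.2 in HM. Samples fell into alike pairs in HetKO (replicates 1 and 4, 2 and 5, 3 and 6) and HM (1 and 4, 2 and 3, 5 and 6). The spread of log2 differences within these pairs was 0.051 to 0.105, against 0.164 to 0.358 between other samples of a line. In WT, replicates 1 and 4 (0.075) were not set apart from other samples (0.073 to 0.205), and the WT pairs 1 and 4, 2 and 5, and 3 and 6 serve only for the means of alike samples. HetKO replicates 2 and 5 stood apart for several members, as did HM replicates 2 and 3. Differences of members and of their tested ratios that move by more than 1.5 times or cross the threshold without these samples are given. HM replicates 5 and 6 also stood apart, with the highest Ccnd1, Cdk4 and Ccne1 and the lowest Cdkn1b and Rb1 of that line. No fit left HM replicates 5 and 6 out, so how far the HM differences rest on them was not tested.

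Ccnd1 (ENSMUSG00000070348.5) is encoded on chromosome 7 (144929931 to 144939925, minus strand, GRCm38). In WT replicates 1 to 6 it was at 9.65, 12.4, 12.2, 9.96, 12.2 and 10.49 TPM. In HetKO it was at 21.3, 52.7, 19.8, 21.4, 52.0 and 17.5 TPM. In HM it was at 166, 99.1, 103, 108, 215 and 228 TPM. The 3 lines did not overlap at any sample: every HetKO value lay above every WT value, and every HM value lay above every HetKO value. The means were 11.1 ± 1.25 TPM in WT, 30.8 ± 16.8 in HetKO and 153 ± 58.4 in HM (SD, n = 6 each). Mean Ccnd1 was thus 13.7 times as high in HM as in WT and 4.98 times as high in HM as in HetKO. HetKO replicates 2 and 5, at a mean of 52.3 TPM, were the highest of that line. The other 4 HetKO samples had a mean of 19.98 ± 1.82 TPM (SD, n = 4) and still lay above WT. The same 2 HetKO samples had the highest summed markers of differentiated cells, 119 and 74.0 TPM against 12.4 to 18.8 in the other 4. The mesoderm gene T supplied 110 and 66.2 TPM of these sums, so they rest mostly on that gene. Mixl1 and Tbx6, also among these markers, were at most 1.17 and 2.73 TPM in any HetKO sample. Sall4, an embryonic carcinoma marker, was highest of the line in replicates 2 and 5, at 69.5 and 67.75 TPM. Whether differentiated cells had a part in the Ccnd1 level was not tested. In HM, replicates 5 and 6, the highest in Ccnd1, had the lowest marker sums of that line, at 21.2 and 24.6 TPM.

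**Figure D1:**
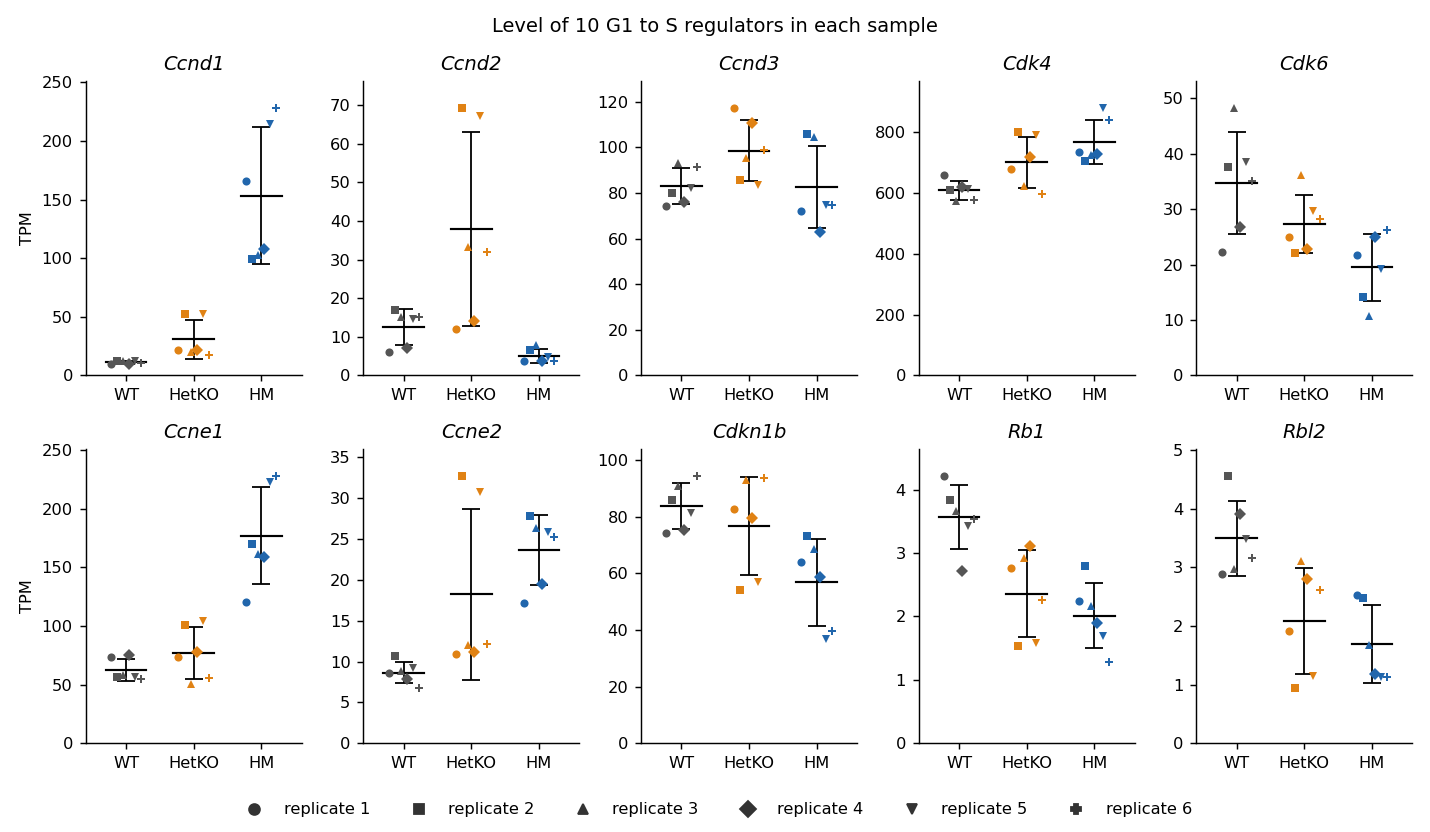
TPM of the 10 members in the 6 samples of each line, with a symbol for each replicate number, a horizontal bar at the mean and whiskers of 1 SD. Ccnd1 separates all 3 lines, from at most 12.4 TPM in WT to at least 99.1 in HM, whereas Ccnd2 is highest in HetKO and lowest in HM.

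On the log2(TPM + 1) scale used for all comparisons, which understates the change of genes with low TPM, Ccnd1 differed by 3.59 between HM and WT. This was the second-highest difference among 14043 genes, at rank 2 from the top. Between HetKO and WT it differed by 1.24, or 0.79 without HetKO replicates 2 and 5, at rank 45 of 13999, and between HM and HetKO by 2.35, at rank 39 of 13762. These comparisons share their samples in pairs, and Ccnd1 was picked from the first, so the ranks are a description.

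Ccnd2 (chromosome 6, 127125162 to 127152193, minus strand) took a different course from Ccnd1. It was at 5.94, 17.1, 15.1, 7.19, 14.6 and 15.1 TPM in WT replicates 1 to 6. In HetKO it was at 11.96, 69.3, 33.3, 14.2, 67.3 and 31.9 TPM, and in HM at 3.64, 6.48, 7.98, 3.62, 4.70 and 3.86 TPM. HetKO fell into 3 levels that follow the alike pairs of samples, and all HM values lay below all HetKO values, while HM and WT overlapped. Ccnd2 fell by 2.45 on the log2 scale from HetKO to HM (standard error 0.40, adjusted p = 0.000812 from limma) and by 1.12 from WT to HM (standard error 0.26, adjusted p = 0.00338). The higher mean of HetKO over WT, 37.98 ± 25.1 against 12.5 ± 4.70 TPM (SD, n = 6), did not pass the threshold of 0.05 (log2 difference 1.33, adjusted p = 0.0670 from limma), and it was 0.77 without HetKO replicates 2 and 5 (adjusted p = 0.244). With the means of alike samples as replicates, neither fall of Ccnd2 passed (adjusted p = 0.0575 against WT and 0.0606 against HetKO).

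Ccnd3 (chromosome 17, 47505051 to 47599691, plus strand), the most abundant D-type cyclin of WT cells, was at 74.2 to 93.1 TPM in WT with a median of 81.2. It was at 83.3 to 117 with a median of 96.9 in HetKO, and at 63.0 to 106 with a median of 74.9 in HM. The lines overlapped in every comparison, and none of the differences passed (log2 difference between HM and WT -0.03, 95% interval -0.29 to 0.24, adjusted p = 0.870 from limma). HM replicates 2 and 3 held the highest HM values, 106 and 104 TPM, and without them Ccnd3 lay 0.21 lower in HM than in WT (adjusted p = 0.0448) and 0.45 lower than in HetKO (adjusted p = 0.00768). Without HetKO replicates 2 and 5, Ccnd3 lay 0.34 higher in HetKO than in WT (adjusted p = 0.0290).

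The 3 D-type cyclins together thus shifted in make-up. Their summed TPM was 89.7 to 120 in WT, 146 to 208 in HetKO and 175 to 307 in HM. Ccnd3 supplied 73.2 to 82.6% of that sum in WT and 24.4 to 50.1% in HM. Ccnd1 supplied 8.96 to 11.3% in WT, 11.8 to 14.6% in HetKO replicates 1, 3, 4 and 6, 25.4 and 25.7% in HetKO replicates 2 and 5, and 46.9 to 74.4% in HM. Ccnd2 made up 33.4 and 33.2% in HetKO replicates 2 and 5, but at most 3.71% in any HM sample. Shares that include Ccnd1 are given without a test.

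**Figure D2:**
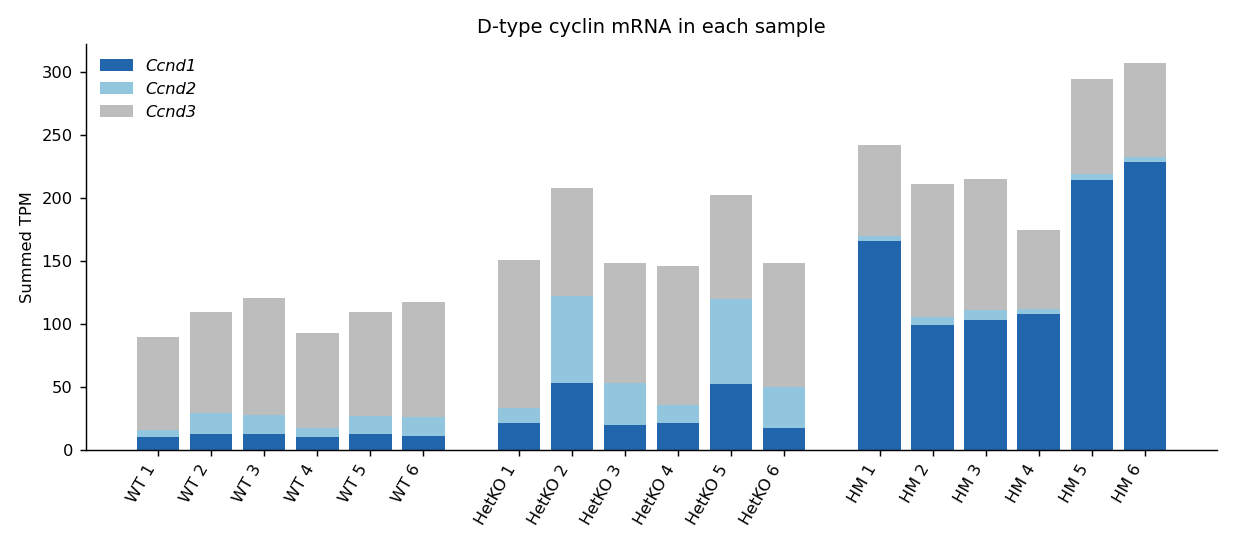
Summed TPM of Ccnd1, Ccnd2 and Ccnd3 in each of the 18 samples, stacked from 0. The Ccnd1 part is a small base of the WT bars and 46.9 to 74.4% of the HM bars, and the Ccnd2 part is widest in HetKO replicates 2 and 5.

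The ratio of Ccnd3 to Ccnd2, which does not contain Ccnd1 or depend on scaling between samples, was tested. Its mean on the log2 scale was 2.83 ± 0.56 in WT, 1.67 ± 1.27 in HetKO and 4.07 ± 0.22 in HM (SD, n = 6). It was 1.24 higher in HM than in WT and 2.40 higher than in HetKO, without overlap in either comparison (adjusted p = 0.00974 for both, two-sided exact permutation test adjusted over 9 ratio tests). The lower ratio in HetKO than in WT, -1.16, did not pass (adjusted p = 0.0828, exact permutation test), and it was -0.48 without HetKO replicates 2 and 5 (adjusted p = 0.364, exact permutation test).

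Of the kinases that D-type cyclins bind, Cdk4 was by far the more abundant. Cdk4 (chromosome 10, 127063534 to 127067920, plus strand) was at 573 to 660 TPM in WT with a median of 613, at 599 to 802 in HetKO with a median of 699, and at 707 to 881 in HM with a median of 733. Every HM value exceeded every WT value, and Cdk4 was 0.33 higher in HM on the log2 scale (standard error 0.06, adjusted p = 0.000664 from limma). The 2 other comparisons overlapped and did not pass, at 0.20 for HetKO over WT (adjusted p = 0.104) and 0.14 for HM over HetKO (adjusted p = 0.225). Without HetKO replicates 2 and 5 the first was 0.10 (adjusted p = 0.341), and the second was 0.23 and passed (adjusted p = 0.0310 from limma).

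Cdk6 (chromosome 5, 3341485 to 3531008, plus strand) went the other way. It was at 22.3 to 48.3 TPM in WT with a median of 36.4, at 22.2 to 36.1 in HetKO with a median of 26.6, and at 10.7 to 26.3 in HM with a median of 20.5. HM replicates 2 and 3 had the lowest levels, 14.1 and 10.7 TPM, and the lines overlapped throughout. Cdk6 fell by 0.82 from WT to HM (standard error 0.22, adjusted p = 0.00826 from limma), a call that did not pass with the means of alike samples (adjusted p = 0.0718). Without HM replicates 2 and 3 the fall was 0.54 and passed (log2 difference -0.54, adjusted p = 0.0321 from limma). Neither comparison with HetKO passed (log2 difference -0.31 against WT, adjusted p = 0.258, and -0.51 for HM against HetKO, adjusted p = 0.0650), and the latter was -0.23 without HM replicates 2 and 3 (adjusted p = 0.235). The log2 ratio of Cdk6 to Cdk4 was -4.18 ± 0.47 in WT, -4.69 ± 0.39 in HetKO and -5.37 ± 0.46 in HM (SD, n = 6). It was 1.19 lower in HM than in WT (adjusted p = 0.0130, exact permutation test) and 0.67 lower than in HetKO (adjusted p = 0.0390, exact permutation test). Without HM replicates 2 and 3 the latter difference was -0.42 and did not pass (adjusted p = 0.107, exact permutation test).

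Both E-type cyclins, the activators of CDK2, were higher in HM than in WT without overlap. Ccne1 (chromosome 7, 38097984 to 38107534, minus strand) was at 54.6 to 75.3 TPM in WT with a median of 57.6. In HetKO it was at 50.5 to 105 with a median of 75.6, and in HM at 120 to 228 with a median of 166. HetKO overlapped WT but not HM. Ccne1 rose by 1.47 from WT to HM (standard error 0.15, adjusted p = 1.24e-05 from limma) and by 1.21 from HetKO to HM (standard error 0.20, adjusted p = 0.000837), while HetKO and WT differed by 0.26 (adjusted p = 0.353), and by 0.028 without HetKO replicates 2 and 5 (adjusted p = 0.936). With the means of alike samples the rise over HetKO did not pass (adjusted p = 0.0601).

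Ccne2 (chromosome 4, 11191351 to 11204779, plus strand) was less abundant than Ccne1 in all lines. It was at 6.73 to 10.6 TPM in WT with a median of 8.73, at 10.9 to 32.8 in HetKO with a median of 12.1, and at 17.2 to 27.8 in HM with a median of 25.6. HetKO replicates 2 and 5, at 32.8 and 30.7 TPM, lay above every HM sample, and the other 4 HetKO samples lay below every HM sample. Ccne2 rose by 1.35 from WT to HM (standard error 0.13, adjusted p = 9.15e-06 from limma). All HetKO values lay above all WT values, yet the difference of 0.85 did not pass (standard error 0.27, adjusted p = 0.0656). It passed at the smaller size of 0.39 without HetKO replicates 2 and 5 (adjusted p = 0.0472), and without them Ccne2 was also higher in HM than in HetKO (log2 difference 0.96, adjusted p = 0.000308), against 0.50 and adjusted p = 0.184 with all samples.

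The log2 ratio of Ccne2 to Ccne1 was -2.86 ± 0.32 in WT and -2.89 ± 0.25 in HM (SD, n = 6), a difference of -0.03 (adjusted p = 0.835, exact permutation test). Without HM replicates 2 and 3 that difference was -0.17 (adjusted p = 0.343, exact permutation test). In HetKO it was -2.20 ± 0.49 (SD, n = 6), higher than in WT by 0.66 and than in HM by 0.69 (adjusted p = 0.0390 for both, exact permutation test). Without HetKO replicates 2 and 5 these differences were 0.40 and 0.44 and neither passed (adjusted p = 0.171 and 0.137, exact permutation test).

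Cdkn1b (chromosome 6, 134920401 to 134925513, plus strand), the gene of the inhibitor p27, was at 74.3 to 94.5 TPM in WT with a median of 83.7. It was at 54.3 to 93.6 in HetKO with a median of 81.2, and at 36.7 to 73.1 in HM with a median of 61.4. No HM sample reached the lowest WT sample, and the lowest were HM replicates 5 and 6, which had the highest Ccnd1. Cdkn1b fell by 0.59 from WT to HM (standard error 0.16, adjusted p = 0.00791 from limma), a call that did not pass with the means of alike samples (adjusted p = 0.0872). HetKO replicates 2 and 5, at 54.3 and 57.1 TPM, lay among the HM values, and the difference between HetKO and WT, -0.15 with all samples (adjusted p = 0.493), was 0.06 without them (adjusted p = 0.718). Between HM and HetKO the difference was -0.44 (adjusted p = 0.0982), and -0.65 without those samples, where it passed (adjusted p = 0.0171). Without HM replicates 2 and 3 it was -0.62 and also passed (adjusted p = 0.0391 from limma).

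Both pocket protein genes were expressed at a few TPM. Rb1 (chromosome 14, 73183673 to 73325822, minus strand) was at 2.71 to 4.22 TPM in WT with a median of 3.60, at 1.53 to 3.11 in HetKO with a median of 2.52, and at 1.29 to 2.79 in HM with a median of 2.04. Rbl2 (chromosome 8, 91070057 to 91123844, plus strand), the gene of p130, was at 2.88 to 4.56 TPM in WT with a median of 3.32. It was at 0.94 to 3.10 in HetKO with a median of 2.27, and at 1.13 to 2.53 in HM with a median of 1.43. From WT to HM, Rb1 fell by 0.61 (standard error 0.13, adjusted p = 0.00206 from limma) and Rbl2 by 0.77 (standard error 0.16, adjusted p = 0.00191), the latter without overlap. HetKO replicates 2 and 5 were the lowest HetKO samples for both genes, and neither gene passed in the comparisons with HetKO. From WT to HetKO the log2 differences were -0.46 for Rb1 and -0.59 for Rbl2 (adjusted p = 0.0652 and 0.0728 from limma), and -0.28 and -0.32 without those samples (adjusted p = 0.185 and 0.203). From HetKO to HM they were -0.15 and -0.18 (adjusted p = 0.517 and 0.562 from limma), and -0.33 and -0.45 without those samples (adjusted p = 0.0918 and 0.0776). Without HM replicates 2 and 3 they were -0.26 and -0.29 (adjusted p = 0.291 and 0.402).

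Counted over the 9 members other than Ccnd1, 8 passed between HM and WT, 3 higher in HM (Cdk4, Ccne1 and Ccne2) and 5 lower (Ccnd2, Cdk6, Cdkn1b, Rb1 and Rbl2). Of all 14043 genes tested there, 51.4% passed, 19.4% higher and 32% lower in HM. The samples of HM and WT did not overlap for 5 of the 9 members, against 28.5% of all genes. Calls in that comparison lean to the lower side with TPM as deposited. Higher genes made up 37.7% of the calls, but 61.0% when samples were centred on their median and 51.1% after quantile normalization, and the median log2 difference of all genes moved from -0.09 to 0.08 and 0.02. The members kept 3 higher and 5 lower under both scalings. With the means of alike samples, 5 of the 9 passed, 3 higher and 2 lower, against 24.3% of all genes.

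Between HetKO and WT, 0 of the 9 members passed limma's threshold, against 10.2% of 13999 genes (3.71% higher and 6.44% lower in HetKO). The unequal-variance test likewise passed 0. Before adjustment 6 of the 9 had a p under 0.05 by either test, but 0 by limma with the means of alike samples. No share of all genes under 0.05 before adjustment is given here or below, so counts before adjustment cannot be set beside it. Without HetKO replicates 2 and 5, 2 members passed, Ccnd3 and Ccne2, both higher in HetKO, against 7.76% of all genes. Only Ccne2 had samples that did not overlap, against 8.21% of all genes. Higher genes made up 36.5% of all calls, 50.7% with samples centred and 48.1% after quantile normalization.

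Between HM and HetKO, 2 of the 9 passed, Ccne1 higher and Ccnd2 lower in HM, against 34.6% of 13762 genes (14% higher and 20.6% lower). The same 2 members did not overlap, against 15.5% of all genes. Higher genes made up 40.4% of all calls, 60.9% with samples centred and 49.3% after quantile normalization. Without HetKO replicates 2 and 5, 5 members passed, against 46.8% of all genes, and without HM replicates 2 and 3, 4 passed, against 34%. With the means of alike samples 0 passed by limma, against 3.3% of all genes, and 2 had an unadjusted p under 0.05.

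**Figure D3:**
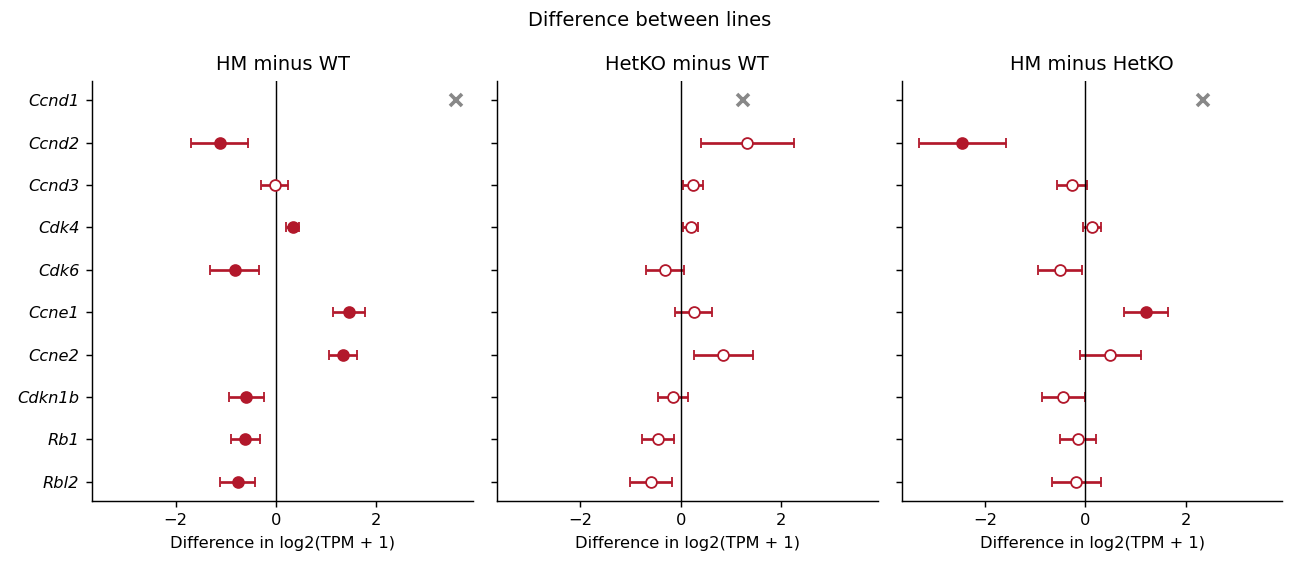
Difference in log2(TPM + 1) between lines for each member, with 95% intervals from limma over 12 samples, filled where the adjusted p is under 0.05. Ccnd1 is a cross without interval or test, since it was chosen by its level. Filled points are 8 for HM minus WT, 0 for HetKO minus WT and 2 for HM minus HetKO.

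Since TPM is per transcript length, levels can also be ordered between genes. In WT the order by mean TPM was Cdk4 at 609, Cdkn1b at 83.7, Ccnd3 at 82.8, Ccne1 at 62.5, Cdk6 at 34.7, Ccnd2 at 12.5, Ccnd1 at 11.1, Ccne2 at 8.65, Rb1 at 3.57 and Rbl2 at 3.49. The neighbours Cdkn1b and Ccnd3, Ccnd3 and Ccne1, Ccnd2 and Ccnd1, Ccnd1 and Ccne2, and Rb1 and Rbl2 overlapped over the 6 WT samples, so their order is not beyond the spread. In HM, Ccnd1 stood in the third place at 153 TPM, behind Cdk4 at 770 and Ccne1 at 177 and before Ccnd3 at 82.5, overlapping with both of its neighbours. Ccnd2 lay apart from its neighbours there, at 5.05 TPM, below Cdk6 at 19.5 and above Rb1 at 2.02. In HetKO, Ccnd1 at 30.8 TPM overlapped its neighbours Ccnd2 at 37.98 and Cdk6 at 27.3.

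The wider machinery around these members was followed in 69 further genes grouped by role, of which 67 were tested between HM and WT. Of these, 19 were higher in HM, 20 were lower and 28 did not pass, so 58.2% passed against 51.4% of all genes. In HetKO against WT 7 of 66 passed, 10.6% against 10.2% of all genes, and in HM against HetKO 17 of 66, or 25.8% against 34.6%. Of all genes tested between HM and WT, 19.4% were higher in HM and 32% lower, and the list counts below stand beside these shares. With samples centred on their median, 4508 of the 14043 genes were higher in HM and 2879 lower. After quantile normalization 3632 and 3479 were, and with the means of alike samples 1182 and 2232.

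E2F and DP factors, the transcription factors held by pocket proteins, had 6 of 10 genes higher and 1 lower in HM than in WT. The shares of all genes were 19.4% higher and 32% lower. The list had a median log2 difference of 0.32 against -0.09 for all genes. E2f4, a factor that works mainly as a repressor with p130, was at 82.0 ± 12.4 TPM in WT and 140 ± 20.9 in HM (SD, n = 6), a rise of 0.76 (adjusted p = 0.00019 from limma). E2f3 rose by 0.71, from 19.5 ± 0.93 to 32.6 ± 2.38 TPM (adjusted p = 4.74e-06 from limma). E2f1, an activator of replication genes, was the 1 factor that fell, by 0.86, from 29.0 ± 5.05 TPM in WT to 15.5 ± 2.51 in HM (adjusted p = 0.000187 from limma), and it was also 0.90 lower in HM than in HetKO (adjusted p = 0.0001 from limma). The counts in this list were 6 higher and 1 lower under both other scalings, and 2 higher and 1 lower with the means of alike samples.

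Of 5 genes that work with E-type cyclins to form active CDK2, 2 were higher and 1 lower in HM than in WT, with a median of 0.08. Cdk7, the catalytic subunit of the kinase that activates CDK2, rose by 0.47 from WT to HM (adjusted p = 0.000687 from limma), and Cdc25a, a phosphatase that removes an inhibitory mark from CDK2, rose by 0.39 (adjusted p = 0.00955). Cdk2 itself fell by 0.14, from 55.4 ± 1.89 to 50.2 ± 2.12 TPM (SD, n = 6, adjusted p = 0.0198 from limma). That direction depends on scaling, since Cdk2 was 0.037 higher in HM with samples centred on their median (adjusted p = 0.563). Neither Cdk2 nor Cdc25a passed with the means of alike samples (adjusted p = 0.238 and 0.104). The other 2 genes did not pass.

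Among the inhibitors, 1 of 3 tested INK4 genes and 1 of 2 CIP and KIP genes besides Cdkn1b passed between HM and WT, both lower. Cdkn1c, which encodes p57, fell by 1.14, from 4.13 ± 0.92 to 1.39 ± 0.72 TPM (SD, n = 6, adjusted p = 0.000514 from limma). Cdkn2d, the gene of p19INK4d, fell by 0.44, from 19.9 ± 2.50 to 14.6 ± 3.40 TPM (adjusted p = 0.0159 from limma). The Cdkn2d call was lost with samples centred (-0.26, adjusted p = 0.0782), after quantile normalization (-0.28, adjusted p = 0.0624) and with the means of alike samples (adjusted p = 0.122). Cdkn2a, which encodes p16INK4a and p19ARF, was 1.60 lower in HetKO than in WT (adjusted p = 0.00108 from limma). It is named here after its value was seen, as the only tested inhibitor to pass in that comparison. It was at a mean of 1.29 TPM in HetKO, 6.34 in WT and 4.91 in HM. From HetKO to HM it rose by 1.36 (adjusted p = 5.36e-05 from limma). Cdkn2b did not meet the filter between HetKO and WT, at 0.49 to 1.68 TPM in WT and at most 0.25 in HetKO.

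Of the 6 pocket protein and MuvB genes other than Rb1 and Rbl2, 1 was higher and 1 lower in HM than in WT. Lin52, a subunit that joins p130 to the MuvB core, fell by 0.58, from 12.6 ± 0.55 to 8.07 ± 0.31 TPM (SD, n = 6, adjusted p = 1.47e-05 from limma). Rbbp4, a histone-binding subunit shared with chromatin complexes, rose by 0.21 (adjusted p = 0.0105 from limma), a call lost after quantile normalization (0.13, adjusted p = 0.107) and with the means of alike samples (adjusted p = 0.136). Ubiquitin ligase parts that degrade G1 regulators had 5 of 8 genes higher in HM than in WT and 0 lower. The shares of all genes were 19.4% and 32%. Cul1, the scaffold, led at 0.53 (adjusted p = 0.000146 from limma), then Skp1a, its adaptor, at 0.40 (adjusted p = 0.000665). Cul1 was also 0.47 higher in HetKO than in WT (adjusted p = 0.030 from limma), and HM and HetKO differed by 0.07 (adjusted p = 0.702). Against HetKO, 1 of the 8 was higher in HM and 0 lower, beside 14% and 20.6% of all genes. The median of that list was 0.30 against -0.09 for all genes, and its counts were 7 higher and 0 lower with samples centred, 6 and 1 after quantile normalization, and 2 and 0 with the means of alike samples.

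Of 15 genes that E2F drives in S phase, 3 were higher in HM than in WT and 5 lower, with a median of 0.06, and the balance turned to 8 higher and 1 lower with samples centred on their median, and to 3 and 6 after quantile normalization. The counts were 0 and 1 with the means of alike samples. Cdc6, a licensing factor, rose by 0.36 (adjusted p = 0.00129 from limma) and Rrm2, a ribonucleotide reductase subunit, by 0.24 (adjusted p = 0.00146). Mcm6, a helicase subunit, fell by 0.36 (adjusted p = 3.94e-05 from limma) and Cdt1, another licensing factor, by 0.27 (adjusted p = 0.0306). The Cdt1 call was lost with samples centred (-0.09, adjusted p = 0.424), and of these 4 genes Mcm6 alone passed with the means of alike samples.

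G2 and mitosis genes had 0 of 10 higher and 7 lower in HM than in WT, with a median of -0.26. Over all genes 19.4% were higher and 32% lower, with a median of -0.09. Aurkb, a mitotic kinase, fell by 0.55, from 160 ± 8.85 to 109 ± 7.43 TPM (SD, n = 6, adjusted p = 1.41e-05 from limma). Mki67, which encodes the Ki-67 antigen, fell by 0.52, from 114 ± 10.2 to 79.3 ± 4.84 TPM (adjusted p = 5.71e-05 from limma). With samples centred on their median the list had 1 higher and 3 lower, after quantile normalization 0 and 8, and with the means of alike samples 0 and 4. Under these settings 52.6%, 50.6% and 24.3% of all genes passed. Set against HetKO, 1 of the 10 was higher in HM and 0 lower, beside 14% and 20.6% of all genes. Without HetKO replicates 2 and 5, 1 was higher and 5 were lower, where 46.8% of all genes passed.

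Of 8 Myc family genes, 2 were higher and 3 lower in HM than in WT. Mycn, which encodes N-Myc, was at 26.0 ± 1.86 TPM in WT, 58.7 ± 44.2 in HetKO and 83.4 ± 44.5 in HM (SD, n = 6), and rose by 1.495 from WT to HM (adjusted p = 0.00043 from limma). Max, the partner of Myc proteins, rose by 0.25 (adjusted p = 0.00866 from limma), a call lost with the means of alike samples (adjusted p = 0.101). Mxd4 and Mxd3, which encode partners of MAX that oppose Myc, fell by 0.87 and 0.77 (adjusted p = 0.00038 and 0.000847 from limma).

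**Figure D4:**
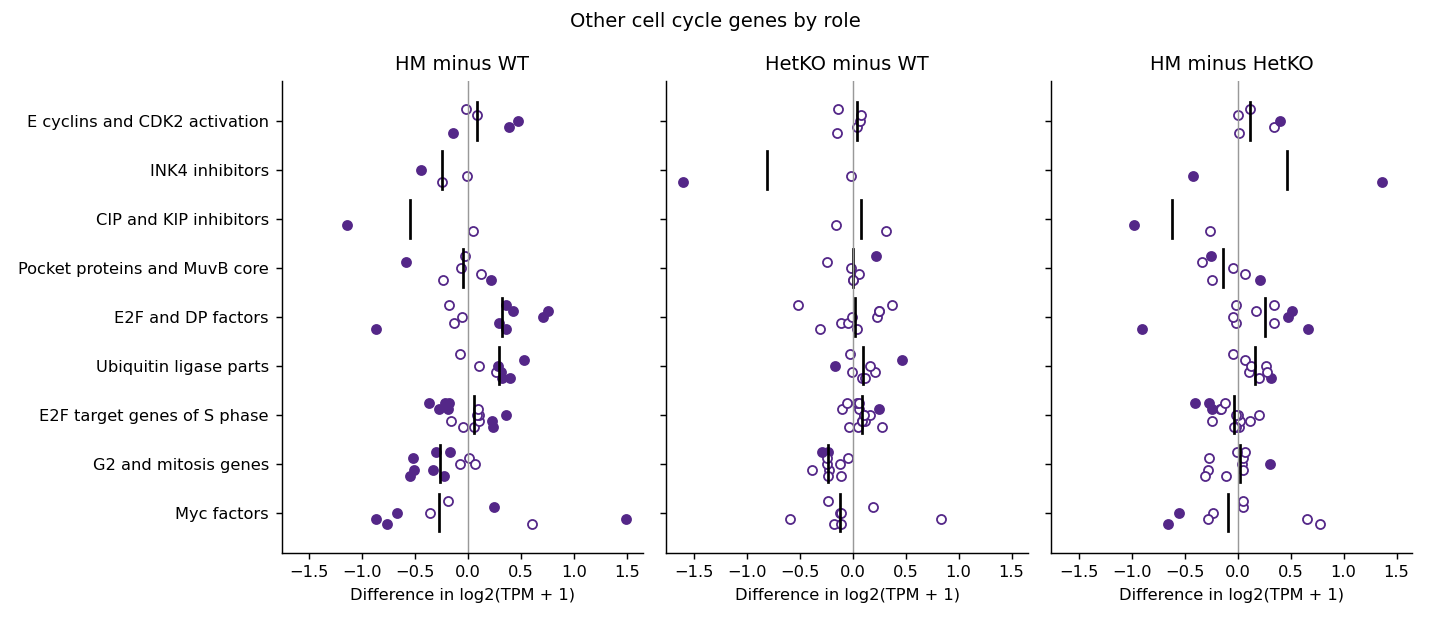
Difference in log2(TPM + 1) between lines for each tested gene of 9 lists by role, without the 10 members, with filled points where limma's adjusted p is under 0.05 and a vertical bar at the list's median. For HM minus WT, E2F and DP factors and ubiquitin ligase parts lie mostly to the right, at medians of 0.32 and 0.30, and G2 and mitosis genes to the left, at -0.26.

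The level of Ccnd1 was set beside that of every gene averaging 1 TPM or more across all 18 samples, by the Pearson correlation of log2(TPM + 1). This is a description over 13954 genes and 18 samples that share 3 lines and their alike pairs. The genes most like Ccnd1 were Smarcad1 at r = 0.976, Snrpn at 0.974, Fjx1 at 0.965, Gm20707 at 0.963 and Kpna4 at 0.961. Smarcad1, a chromatin remodeller, had mean levels of 47.4 TPM in WT, 61.2 in HetKO and 104 in HM, and Snrpn, a splicing factor gene, of 678, 771 and 1149. Fjx1 was at 4.89 to 6.28 TPM in WT, 4.24 to 16.9 in HetKO and 20.7 to 45.0 in HM. The genes most opposed to Ccnd1 were Stk25 at r = -0.979 and Ctc1, a telomere maintenance gene, at -0.969. Among the members, Ccne1 came closest at r = 0.929, rank 69 of 13954, followed by Ccne2 at 0.851 and Cdk4 at 0.849. Cdkn1b, Rb1 and Rbl2 ran opposite to Ccnd1 at -0.814, -0.792 and -0.750, and Cdk6 at -0.603 over all samples. Within lines, that is after each line's mean was removed, Cdkn1b stayed opposite at -0.846 and Cdk4 alike at 0.814. Both Cdk6 and Ccnd2 turned in sign, Cdk6 from -0.603 over all samples to 0.265 within lines and Ccnd2 from -0.404 to 0.449. Among the HetKO samples, Ccnd1 and Ccnd2 were each highest in replicates 2 and 5.

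Genes near Ccnd1 on chromosome 7 were also examined. Of 10 other tested genes within 1 Mb of it, 6 were higher in HM than in WT and 0 lower, with a median log2 difference of 0.58, and 19.4% of all genes were higher. The growth factor genes Fgf15 and Fgf4 lie 28978 and 64688 bases beyond the 3′ end of Ccnd1. Fgf15 rose by 1.25, from 17.9 ± 2.05 to 46.2 ± 16.8 TPM, and Fgf4 by 1.14, from 11.4 ± 1.35 to 27.6 ± 9.73 TPM (SD, n = 6, adjusted p = 0.000225 and 0.00046 from limma). Fadd, Tpcn2, Fgf3 and Ppfia1 rose by 0.64, 0.60, 0.57 and 0.29 (adjusted p = 0.00049, 0.00107, 0.017 and 0.0119 from limma). LTO1, Cttn, Shank2 and Bc1 did not pass. In HetKO against WT, 1 of 9 was higher (Shank2, 0.61, adjusted p = 0.0418 from limma) and 1 lower (Fgf4, -1.40, adjusted p = 0.00639), with a median of -0.02. The shares of all genes there were 3.71% higher and 6.44% lower. In HM against HetKO, 6 of 10 were higher and 1 lower, beside 14% and 20.6% of all genes, and with the means of alike samples 1 was higher and 0 lower. Fgf3 is among these 6, at a mean of 2.15 TPM in HM and 0.56 in HetKO. It met the filter of 1 TPM only through HM, so its place in that count is partly set by the filter. The counts between HM and WT were 8 higher and 0 lower with samples centred, 7 and 0 after quantile normalization, and 4 and 0 with the means of alike samples. Around the other 9 members, 5 to 35 genes were tested within 1 Mb, and their median differences between HM and WT ran from -0.39 around Ccne2 to 0.03 around Rb1.

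**Figure D5:**
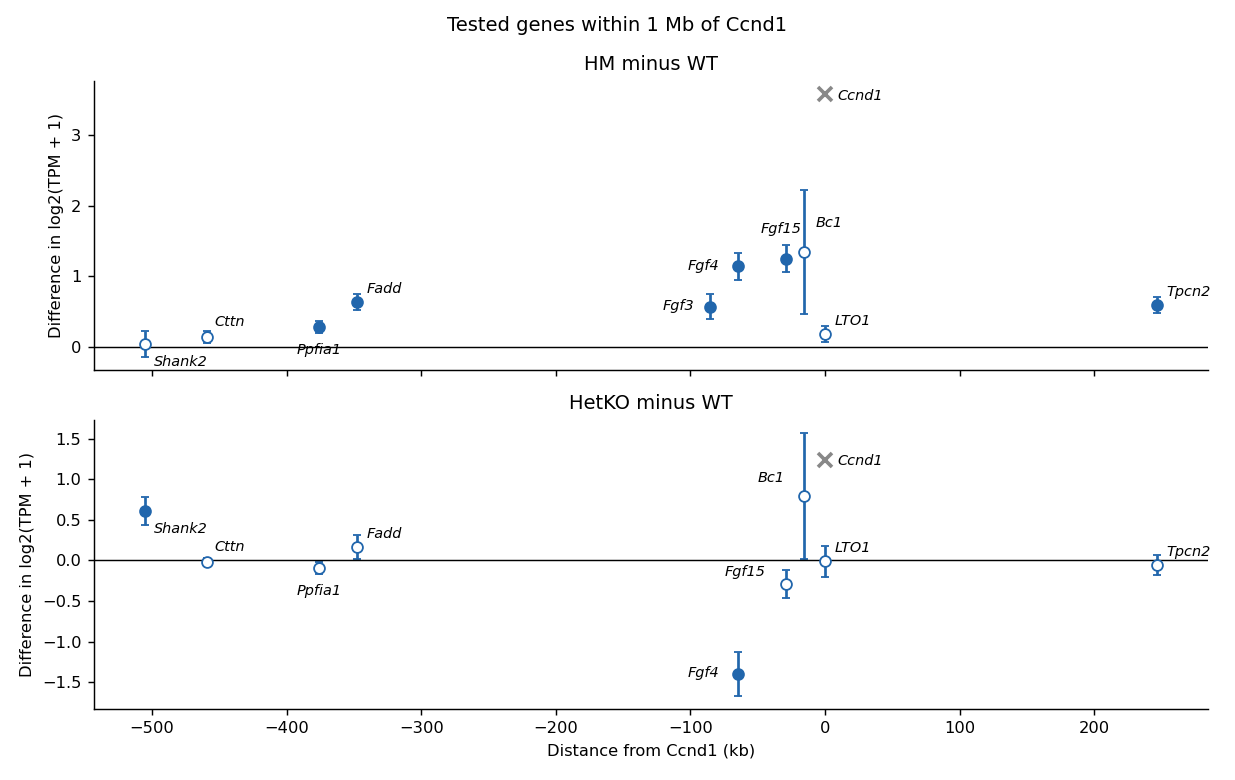
Difference in log2(TPM + 1) for HM minus WT (top) and HetKO minus WT (bottom) of the tested genes within 1 Mb of Ccnd1, against their distance from it in kb. Bars are the standard error, filled points have an adjusted p under 0.05 and Ccnd1 is a cross without a test. The 6 filled points, between 0.29 and 1.25, stand above 0 in the upper panel.

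Neighbours that overlap a member on the other strand bear on how its reads were assigned, since the libraries were stranded but the strand setting of the counting is not given in the sources used here. LTO1 overlaps Ccnd1 in opposite orientation, with 818 transcript bases in common, and was at 13.0 ± 1.24 TPM in HM and 11.51 ± 2.37 in WT (SD, n = 6), a difference of 0.18 that did not pass (adjusted p = 0.218 from limma). It passed at 0.36 with samples centred (adjusted p = 0.0188) and 0.375 after quantile normalization (adjusted p = 0.0167). Ccnd3, Cdk4, Ccne2, Rb1 and Rbl2 overlap Bysl, Tspan31, Ints8, Rcbtb2 and Aktip on the opposite strand. Over the 18 samples these partners averaged 33.7, 49.5, 41.4, 10.6 and 35.6 TPM. Ints8, Rcbtb2 and Aktip thus averaged above the mean of Ccne2, Rb1 and Rbl2 in any line, and Bysl and Tspan31 below that of Ccnd3 and Cdk4. Rb1 also overlaps Lpar6 on the opposite strand, at 1.12 TPM. Among near-identical copies, a processed pseudogene of Ccnd3 (96.3% identity over 881 bases) was at a mean of 0.068 TPM over the 18 samples, and Gm16505, a pseudogene like Cdk6 (96.1% over 233 bases), at 1.88 TPM. The levels of members with such partners are uncertain to the extent that reads could be split.

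Dicer makes miRNAs from both arms of a hairpin, called 5p and 3p, and its RNase IIIb domain, the site of the HM substitution, makes the cut that frees the 5p arm. The members' 3′ UTRs were therefore searched for the seeds of 10 of the miRNAs that the study followed by northern blot. Of these, 6 were of the 5p and 4 of the 3p arm. Other 3p miRNAs that the study blotted, among them miR-26a-2-3p and miR-92a-3p, were not searched. A miRNA pairs with a target mainly through its seed, bases 2 to 8, shown in capitals in the mature sequences from RefSeq (GRCm38.p6). The miRNAs shown are those whose seeds match Ccnd1, Ccne1 or Ccne2. The first pair share the seed AGCAGCA and the next pair AAAGUGC.
miR-15b-5p: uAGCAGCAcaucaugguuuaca
miR-16-5p: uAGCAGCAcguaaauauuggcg
miR-17-5p: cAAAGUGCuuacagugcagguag
miR-20b-5p: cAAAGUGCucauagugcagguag
miR-26a-5p: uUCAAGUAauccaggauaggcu
miR-7a-1-3p: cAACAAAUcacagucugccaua

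Ccnd1 and Ccne1, the members with the highest log2 differences between HM and WT, were searched in their longest annotated 3′ UTR. Each held 2 matches to the 5p seeds searched and 0 to the 3p seeds searched. The matches are given on the mRNA's strand with the letters complementary to the seed in capitals, together with the match of Ccnd2 to the seed of miR-17-5p. Coordinates are in GRCm38, and all 5 sites lie on the minus strand.
Ccnd1, miR-15b-5p and miR-16-5p, chr7:144930394-144930416: ttgtgcatgccaccaTGCTGCTg
Ccnd1, miR-17-5p and miR-20b-5p, chr7:144931675-144931697: ccattccatttcaaaGCACTTTt
Ccne1, miR-15b-5p and miR-16-5p, chr7:38098023-38098045: ctcttattttgtaagTGCTGCTa
Ccne1, miR-26a-5p, chr7:38098250-38098272: tgctaaggagggtgcTACTTGAc
Ccnd2, miR-17-5p and miR-20b-5p, chr6:127129339-127129361: cattccattagaaaaGCACTTTg

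These are matches of 7 letters and not shown to be sites of regulation. The motif TGCTGCT is held by 35.8% and GCACTTT by 22.1% of the 2463 3′ UTRs within 20% of the 2676 bases of Ccnd1. The 3′ UTR of Ccne1 has 531 bases, and 9.28% of 2059 UTRs near that length hold TGCTGCT and 3.74% hold TACTTGA. Members lower in HM held matches too. Ccnd2, lower in HM, held 4 matches to 5p seeds and 2 to 3p seeds in 5173 bases, and Cdk6, also lower, held 6 and 3 in 10217 bases, with 2 of its TGCTGCT matches overlapping. Rb1 held 3 and 0 and Rbl2 3 and 1. Ccne2, higher in HM, held 1 match to a 5p seed and 3 to the seed of miR-7a-1-3p (motif ATTTGTT, in 21.4% of 2883 UTRs near its length). Cdk4 held none of the 7 motifs, Ccnd3 held 1 match to a 5p seed and Cdkn1b held 1 to a 3p seed.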

How the data were processed

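Per the methods, BBMerge joined read pairs and RSEM gave gene levels, which the authors deposited as TPM with 2 decimals. The submitters' processing notes also name cutadapt, STAR and mm10. Versions, the RSEM reference and the strand setting are not given in the sources used here. All 55450 identifiers matched GENCODE M21 (GRCm38). TPM keeps no depth, so the spread between samples sets the precision.

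Each comparison used its own 12 samples and the genes that averaged 1 TPM or more in them. log2(TPM + 1) values entered limma 3.58.1 (R 4.3.3, mean-variance trend, two-sided, Benjamini-Hochberg over all genes, threshold 0.05). Ratios within a family were tested by exact permutation over 924 splits, with a smallest possible p of 0.00216, in Python 3.11.15 with scipy 1.17.1. On simulated data for HM and WT with 14043 genes, 162 of 200 simulated shifts of 1 in log2(TPM + 1) were called, beside 12 false calls. The simulated samples were independent and most of their genes unchanged, whereas the real samples include alike pairs. The number of false calls in the real comparisons therefore cannot be read from this.

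The members, gene lists and tests were chosen with earlier results of these data known. The rule for names took all members, up to 2 largest rises and 2 largest falls between HM and WT per list, the 5 most and 2 least correlated genes with Ccnd1, its tested neighbours within 1 Mb and Dicer1. Each result was also computed with 0.1 as pseudocount, another or no TPM filter, 2 scalings, a single fit of all 18 samples, a replicate block, an unequal-variance test, a 1.5-fold limit, means of alike samples and leaving out the samples that stood apart. Alike samples had a robust SD of log2 differences, over 683 genes of at least 200 TPM, of 0.049 to 0.105. The study's miRNA libraries were not analysed here.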

Additional observations from a re-analysis of the deposited data

How the results depend on the processing

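Of 304 log2 differences of single members under the alternatives, 283 counted as unchanged, 14 came to pass, 5 no longer passed and 2 reversed. Unchanged meant the same direction and side of the threshold. For Ccnd1, which had no test, it meant the same direction and a size within a limit set by its standard error. The other filters, the single fit, the block, the unequal-variance test and the means of alike samples leave the log2 difference itself as it was. Direction could not reverse under those. The reversals were Ccnd3 between HM and WT, 0.15 with samples centred on their median, and Cdkn1b between HetKO and WT, 0.061 without HetKO replicates 2 and 5. Members past the threshold were 8 between HM and WT, and 5 with the means of alike samples. Between HetKO and WT they were 0, but 1 with samples centred, 2 in the single fit of 18 samples and 2 without HetKO replicates 2 and 5. Between HM and HetKO they were 2, but 0 with the means of alike samples, 5 without HetKO replicates 2 and 5 and 4 without HM replicates 2 and 3. Genes of the wider lists past the threshold were 39, 7 and 17 in these comparisons, and 17, 0 and 3 by limma with the means of alike samples, where 4 had an unadjusted p under 0.05 between HetKO and WT. Between HetKO and WT they were 4 by the unequal-variance test, and between HM and HetKO 31 without HetKO replicates 2 and 5. With the means of alike samples, 3 against 3, no ratio could pass, since the smallest p is 0.1, and the differences of those that had passed stayed at -1.19 and -0.67 for Cdk6 over Cdk4, 0.66 and -0.69 for Ccne2 over Ccne1, and 1.24 and 2.40 for Ccnd3 over Ccnd2. Cdk6 over Cdk4 between HM and HetKO was -0.42 without HM replicates 2 and 3, and Ccne2 over Ccne1 was 0.40 and -0.44 without HetKO replicates 2 and 5. The cause of these moves was not tested, beyond the smaller number of samples in the fits on means.

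Whether replicate numbers pair the samples was checked. The deviations of same-numbered samples had mean correlations of -0.11, 0.18 and 0.06 between HM and WT, HetKO and WT, and HM and HetKO, and 0, 2 and 1 of 6 samples correlated best with their own number. The highest single correlation was 0.498, between HetKO and WT. Since samples of a line are alike in pairs, a best match can fall on the alike sample, so the check cannot exclude pairing. With the replicate number as a block, 2 members (Ccnd2 and Ccne2) and 4 wider genes passed between HetKO and WT. Cdk6 over Cdk4 between HM and HetKO stayed at -0.67 with an adjusted p of 0.0703 by an exact sign-flip test, and Ccnd3 over Ccnd2 between HetKO and WT stayed at -1.16 with 0.0469, whereas it was -0.48 without HetKO replicates 2 and 5 (adjusted p = 0.364, exact permutation test).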
